A study of Capra hircus with 2 samples.

Results

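The miR-199 and miR-214 cluster was followed in the small RNA of the goat mammary gland at peak and late lactation. Its members were the 5 mature arms miR-199a-5p, miR-199b-5p, miR-199a/b-3p, miR-214 (the 3p arm) and miR-214-5p. Reads of identical sequence had been collapsed into tags, and 576 of the 659118 distinct tags of the libraries belonged to these arms. In each arm a tag was counted when it held 16 nt of the mature form without mismatch. These were the last 16 nt for miR-214 and nt 2 to 17 for the other arms. The last 16 nt of miR-214 are also the last 16 nt of the longer primer that the study used for its PCR assay. The count of tags includes miR-214 tags with its nt 2 to 17, which serve as a second rule for this arm. The 3p arm is the same in miR-199a and miR-199b, so its reads could not be divided between them.

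Total RNA from the mammary glands of 5 Laoshan dairy goats, 4 years of age and with no treatment stated, was pooled for each stage, at day 90 after kidding for peak lactation and day 210 for late lactation, and sequenced as 1 library per stage. The sources used here do not make plain whether the same 5 goats gave tissue at both stages. With 1 pooled library per stage, every interval and P below covers counting error only and compares these libraries, not the stages, and a change in the number of cells of a type cannot be told apart from a change in RNA per cell. The libraries held 19044002 clean reads in peak and 7385833 in late lactation, so that 1 read was worth 0.0525 and 0.135 reads per 1000000 clean reads (RPM), respectively. They also differed in preparation: reads removed as 5′ adaptor contaminants were 0.0494% of the high-quality reads in peak and 14.03% in late lactation, and the part of this difference in the results below was not tested.

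MicroRNAs are cut as short duplexes from hairpin precursors, and as a rule 1 strand, the 5p or the 3p arm, is loaded into Argonaute and directs repression of mRNAs that pair with its seed, the bases near the 5′ end. In mammals miR-214 and a copy of miR-199a are made from a shared non-coding transcript that runs antisense to an intron of the dynamin gene DNM3. By contrast, miR-199b lies in an intron of DNM1. The cluster is known from mesenchymal cells such as fibroblasts and pericytes and from fibrosis, and it is low in most epithelia. In the RefSeq table of the goat assembly ARS1.2, MIR214 and MIR199A lay within DNM3 on chromosome 16 with 0 listed genes between them, and MIR199B lay within DNM1 on chromosome 11. Whether reads of miR-199a also come from a further locus was not tested.

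The mature forms were read from the deposited tags, and are shown because the matching, the seeds and the ends described below all refer to them. They run 5′ to 3′ with T for U, and the capitals mark the seed at nt 2 to 8.

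miR-199a-5p: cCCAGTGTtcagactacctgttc

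miR-199b-5p: cCCAGTGTttagactatctgttc

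miR-199a/b-3p: aCAGTAGTctgcacattggtta

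miR-214: aCAGCAGGcacagacaggcagt

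miR-214-5p: tGCCTGTCtacacttgctgtgc

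The 5p arms of miR-199a and miR-199b share their seed and differ by C10T and C17T, counted from 1 at the 5′ end with the base of miR-199a first. The seeds of the remaining arms differ from theirs and from each other, although those of miR-214 and miR-199a/b-3p begin alike. Folded as pairs of free strands, the arms assigned to 1 hairpin had minimum free energies of -24 kcal/mol for miR-199a, -22.2 kcal/mol for miR-199b and -28 kcal/mol for miR-214. The pairs taken from different hairpins had energies from -10.5 to -7.6 kcal/mol.

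miR-214 was the arm with the largest ratio between the libraries among the 5 arms. It had 40 reads in peak and 884 reads in late lactation, which is 2.10 RPM (95% Poisson interval 1.501 to 2.86) and 120 RPM (112 to 128). The level in late lactation was 57.0-fold that in peak lactation, a log2 ratio of 5.83 (95% binomial interval 5.38 to 6.33).

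Its miR-199 partners did not follow to that size. miR-199a-5p had 912 reads in peak and 584 in late lactation, or 47.9 RPM (44.8 to 51.1) and 79.1 RPM (72.8 to 85.8). This is a log2 ratio of 0.72 (0.57 to 0.87), which is above 0 beyond counting error by this rule but under the 2-fold limit. The identical tag alone, with 613 and 241 reads, gave 0.02 (-0.20 to 0.24), and reads with the whole 3′ end gave 0.20 (-0.0031 to 0.41), neither of which is beyond counting error. miR-199b-5p, which carries the same seed but comes from the DNM1 locus, had 515 and 605 reads, or 27.0 RPM (24.8 to 29.5) and 81.9 RPM (75.5 to 88.7). Its log2 ratio was 1.60 (1.43 to 1.77), past both limits for a call given below. miR-199a-5p was thus above miR-199b-5p in peak lactation, while in late lactation their intervals overlapped and no order was established.

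miR-199a/b-3p was the most abundant arm in both libraries, with 18829 reads in peak and 6525 in late lactation. The levels were 989 RPM (975 to 1003) and 883 RPM (862 to 905), a log2 ratio of -0.16 (-0.20 to -0.12). The direction depended on the forms counted: reads with the same 5′ end gave a log2 ratio of -0.0033 (-0.053 to 0.047), and the identical tag, with 1856 and 1577 reads, gave 1.13 (1.03 to 1.23) and was called higher. The most abundant tag of this arm in peak lactation had the same start but 21 nt. With 4659 and 1459 reads, it had a log2 ratio of -0.31 (-0.39 to -0.22). miR-214-5p, the strand opposite to miR-214, was rare, with 36 reads or 1.89 RPM (1.32 to 2.62) in peak and 7 reads or 0.948 RPM (0.381 to 1.95) in late lactation. Its log2 ratio was -0.996 (-2.41 to 0.19), so by this rule a difference between the libraries was not detectable at this depth. The identical tag alone, with 29 and 3 reads, had a log2 ratio of -1.91 (-4.27 to -0.22) and was called lower. By the rules used for the arms, the point estimates of the 5p and 3p arms stood on either side of 0 in miR-214 and also in miR-199.

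**Figure D1:**
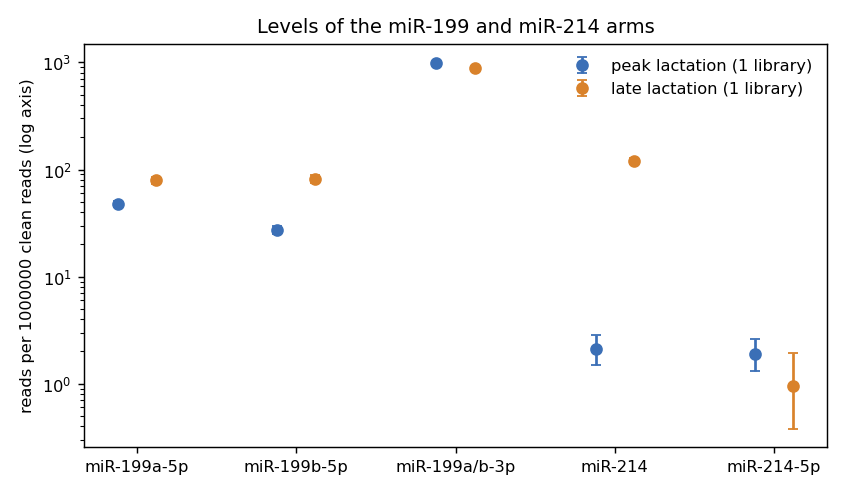
Levels of the 5 arms in reads per 1000000 clean reads (log axis), with 1 point per library and 95% Poisson intervals that cover counting error only. miR-214 moves from 2.10 to 120 RPM, whereas miR-199a/b-3p stays near 989 and 883 RPM.

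A feature was called when its RPM differed at least 2-fold with P below 0.01. Of the 5 arms, miR-214 and miR-199b-5p were called higher in late lactation and 0 were called lower. The background is wide: of 3415 groups of tags that share 16 nt and reach 1 RPM in a library, 27.5% were called higher and 32.2% lower. A count of 2 of 5 is thus not far from the share of all groups, and the size of the ratio says more than the call. Among the 2194 groups of at least 10 RPM, whose median log2 ratio was -0.43, the ratio of miR-214 by nt 2 to 17 was exceeded by 115. The ratio of miR-199b-5p was exceeded by 380, that of miR-199a-5p by 642 and that of miR-199a/b-3p by 991 of these groups, while that of miR-214-5p, which itself stays under 10 RPM, was exceeded by 1427.

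The difference between miR-214 and each partner was tested on the reads themselves with Fisher's exact test, which does not depend on the library totals. The ratio of late over peak lactation was 34.5 times larger for miR-214 than for miR-199a-5p (95% interval 24.6 to 49.4) and 18.8 times larger than for miR-199b-5p (13.4 to 27.1). It was 63.8 times larger than for miR-199a/b-3p (46.4 to 89.99) and 114 times larger than for miR-214-5p (45.5 to 316). All 4 intervals lie far from 1. In peak lactation 22.8 reads of miR-199a-5p were counted for each read of miR-214, against 0.661 in late lactation. These numbers depend on the rules, as miR-214 was counted by its last bases and miR-199a-5p by nt 2 to 17. With nt 2 to 17 for both arms, they were 3.63 in peak and 0.243 in late lactation.

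The size of the ratio of miR-214 depended on which part of the sequence a tag had to hold. With nt 2 to 17, the rule used for the partners, miR-214 had 251 reads or 13.2 RPM in peak and 2403 reads or 325 RPM in late lactation. The log2 ratio was then 4.63 (4.44 to 4.82), and its ratio was 15.0 times that of miR-199a-5p (12.6 to 17.7), 8.15 times that of miR-199b-5p (6.81 to 9.75) and 27.6 times that of miR-199a/b-3p (24.2 to 31.7). By either rule miR-214 stood apart from the partners, and the fold between the libraries was 24.7 by nt 2 to 17 against 57.0 by the last 16 nt.

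**Figure D2:**
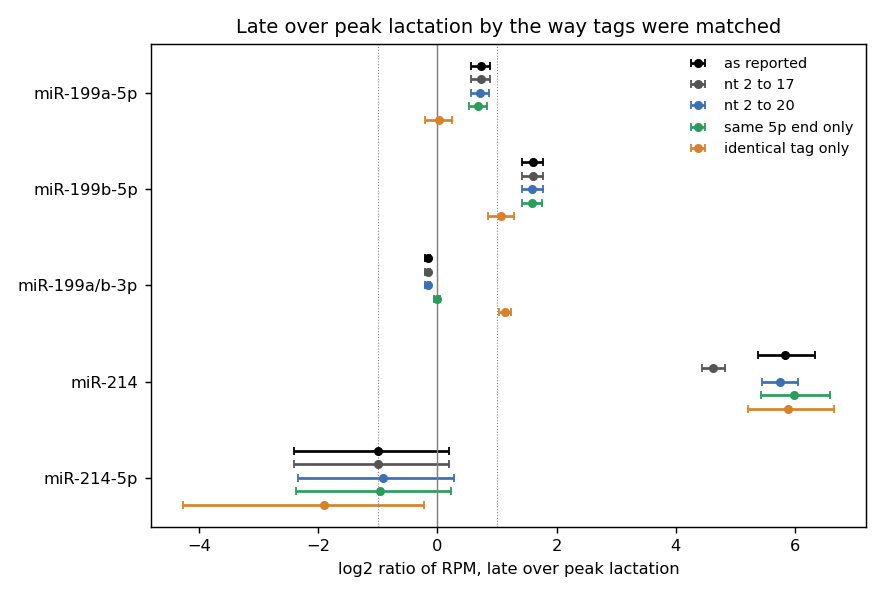
log2 ratio of RPM, late over peak lactation, of each arm by the way tags were matched, with 95% binomial intervals that cover counting error only; dotted lines mark a 2-fold difference. miR-214 lies above 4.4 by each rule drawn, and miR-199a/b-3p moves from -0.16 to 1.13 when the identical tag alone is counted.

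The gap between these rules came mainly from miR-214 reads whose match to the mature form ends early, often with other bases after it. Among miR-214 reads by nt 2 to 17, 32.4% in peak and 54.4% in late lactation carried no base beyond the match. Reads with nt 2 to 17 but not nt 2 to 20 numbered 157 in peak and 451 in late lactation, which is 62.5% and 18.8% of the reads with nt 2 to 17. Their own log2 ratio was 2.89 (2.62 to 3.16). Such reads match 16 to 19 nt of miR-214, and whether some of them come from another place in the genome was not tested.

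Counted by nt 2 to 17, the arm ratio of miR-199 moved toward the 5p arm in late lactation, whereas the identical tags alone gave the opposite direction. The 5p arms of miR-199a and miR-199b together made up 7.04% of the miR-199 total in the peak library (95% exact binomial interval 6.70 to 7.41; 1427 reads of the 5p arms and 18829 of the 3p arm) and 15.4% in late lactation (14.6 to 16.2; 1189 and 6525 reads). Expressed the other way, there were 13.2 reads of the 3p arm for each read of the 5p arms in peak (12.5 to 13.9) and 5.49 in late lactation (5.16 to 5.84). The odds of a 5p read rose 2.40-fold (2.21 to 2.61; Fisher's exact test, P = 6.22e-94). With the identical tags alone, the 5p share was 34.7% in peak (32.9 to 36.5) and 25.6% in late lactation (23.8 to 27.6), so the direction depended on the forms counted. The identical 3p tag was picked among tags of at least 22 nt. It held 9.86% of the reads of its arm in peak and 24.2% in late lactation, so the opposite direction rests on that choice of tag. The 3p arm was the larger one in both libraries by either rule.

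Within the 5p reads of miR-199, the share of miR-199b was 36.1% in peak (33.6 to 38.6) and 50.9% in late lactation (48.0 to 53.8). The odds of a miR-199b read were 1.83-fold higher in late lactation (1.56 to 2.15; Fisher's exact test, P = 3.12e-14). This difference concerns arms with the same seed and the same 5′ base, read in the same libraries.

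**Figure D3:**
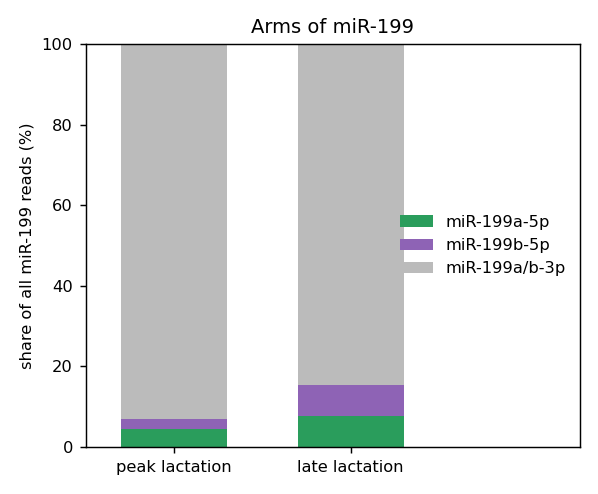
Share of all miR-199 reads (%) held by miR-199a-5p, miR-199b-5p and the shared 3p arm in the 1 library of each stage. Counted by nt 2 to 17, the 5p arms together grow from 7.04% to 15.4%.

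The arm ratio of miR-214 moved in the opposite direction, toward the 3p arm. With the last 16 nt for miR-214, miR-214-5p held 47.4% of the reads in peak (35.8 to 59.2; 36 against 40 reads) and 0.786% in late lactation (0.316 to 1.61; 7 against 884 reads). With nt 2 to 17 these shares were 12.5% (8.94 to 16.9) and 0.290% (0.117 to 0.598), so the share in peak lactation depended on the rule and the direction did not. The peak value rests on 36 reads of the 5p arm and on 40 or 251 reads of the 3p arm.

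The 5′ ends of the 3p arms were mixed, which matters because the 5′ end sets the seed. Of the miR-214 reads with nt 2 to 17, 55.8% in peak and 42.3% in late lactation began 1 nt upstream of the form shown above. For miR-199a/b-3p the shares were 34.4% and 24.6%. The extra base was t in at least 97.4% of such reads of either arm, and the seed then shifts by 1 base, as in these tags:

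miR-214 with 1 extra 5′ nt: tACAGCAGgcacagacaggcagt

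miR-199a/b-3p with 1 extra 5′ nt: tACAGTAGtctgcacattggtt

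The longer miR-214 tag had 3 reads in peak and 172 in late lactation, and this miR-199a/b-3p tag had 2502 and 621 reads. By contrast, at least 96.4% of the reads of miR-199a-5p and miR-199b-5p began at the same base in either library.

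The 3′ ends differed between the libraries in both 3p arms. Among the reads of miR-214, 15.8% in peak (11.5 to 20.9) and 36.6% in late lactation (34.6 to 38.6) ran to the last base of the mature form. For miR-199a/b-3p the whole end was found in 15.7% (15.2 to 16.2) and 40.5% (39.3 to 41.7). The 5p arms moved in the opposite direction, from 69.2% to 48.3% in miR-199a-5p and from 74.5% to 53.6% in miR-199b-5p. The late library therefore did not hold longer 3′ ends in every arm.

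These ends carried through to the ratios. For miR-199a/b-3p, reads with the whole 3′ end numbered 2959 in peak and 2628 in late lactation, which gave a log2 ratio of 1.20 (1.12 to 1.27). Reads that were 2 or more nt short numbered 5891 and 1132, a log2 ratio of -1.01 (-1.11 to -0.92). The near-equal level of this arm is thus the sum of forms that were higher and forms that were lower in late lactation. For miR-214 the same classes gave log2 ratios of 5.83 (5.36 to 6.33) and 3.73 (3.49 to 3.97), both higher in late lactation.

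**Figure D4:**
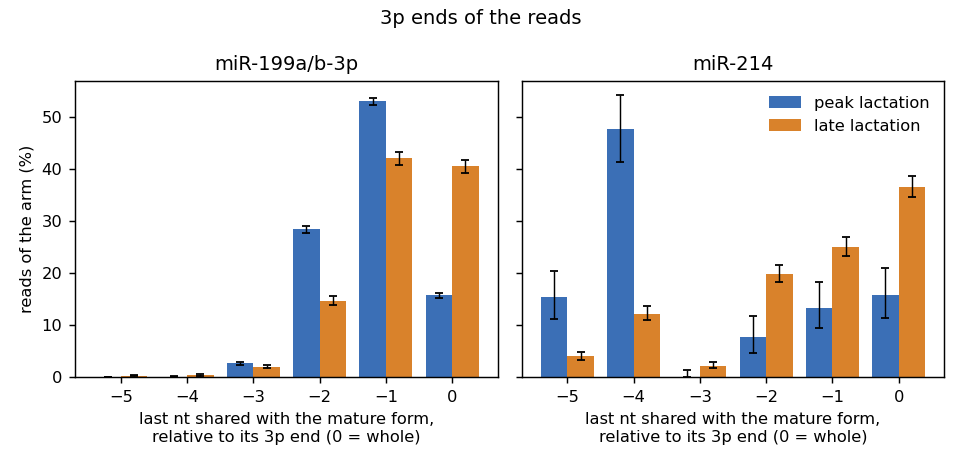
Reads of miR-199a/b-3p and miR-214 (% of the arm) by the last base shared with the mature form, with 0 for the whole 3′ end, in the 1 library of each stage with 95% exact binomial intervals. In miR-214 the reads that stop 4 nt short fall from 47.8% to 12.2%, and in both arms the whole end grows.

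In miR-214 the reads whose match ended early often went on with A. A alone, not part of the mature form, followed the matched bases in 41.7% of miR-214 reads in peak (35.5 to 48.1) and 24.4% in late lactation (22.6 to 26.2). In most of these the match ended early: early ends followed by A alone were 39.3% (33.1 to 45.7) and 18.7% (17.1 to 20.3) of miR-214 reads. The 2 most abundant miR-214 tags in peak lactation were of this short kind, with 27 and 116 reads for the first and 22 and 36 for the second:

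miR-214, short: tACAGCAGgcacagacagg

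miR-214, short with A: tACAGCAGgcacagacagga

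In late lactation the most abundant miR-214 tag was the mature form shown above, with 18 reads in peak and 412 in late, which gave a log2 ratio of 5.88 (5.20 to 6.65). Reads of 20 nt or less made up 39.8% of miR-214 in peak and 15.2% in late lactation, against 15.8% and 9.72% of miR-199a/b-3p.

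At the level of single tags, 87 member tags reached 1 RPM in a library, of which 59 were called higher and 9 lower in late lactation. Over all 26175 tags at that level, 27.5% were called higher and 34.5% lower. The member tags are forms of the same molecules and not independent of each other. miR-214 gave 37 of 38 tags higher and 0 lower, miR-199b-5p 5 of 5 higher, and miR-199a-5p 4 of 7 higher. In peak lactation only the short miR-214 tags shown above reached 1 RPM, at 1.42 and 1.16 RPM. The other miR-214 tags entered through late lactation alone, so their calls were largely fixed by this limit. miR-199a/b-3p was split, with 13 tags higher and 8 lower of 36. Distinct tags of miR-214 numbered 84 in peak and 204 in late lactation, and the peak library would be expected to hold 46.5 at the depth of the late library. These numbers follow the reads of the arm, 251 and 2403 by nt 2 to 17, and are not separate from its ratio.

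Tags on the opposite strand were looked for because a further miRNA can be cut from the transcript antisense to miR-214. Antisense reads were found to miR-214-5p alone among the 5 arms, with 1 read in peak and 2 in late lactation, at or under the 3 reads that a count of 0 allows.

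The 5 groups whose log2 ratio lay nearest to that of miR-214 by nt 2 to 17, within 0.125 and over the 2 libraries, were much rarer, with 10.7 to 18.01 RPM in late lactation. Their leading tags are shown without names, since none was assigned.

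group A, the nearest: tTGCGAAAgcagtggcacggca

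group B: tTAAACTCataattaccaacca

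group C: gCCTGCGAttccgcggctgtctttat

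group D: aACATGGAggaaattccacgt

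group E, the farthest of the 5: aCCGACGGcgacacgagctgga

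Group A had 14 reads in peak and 127 in late lactation, and group B had 9 and 92. The others had 13 and 133, 10 and 89, and 9 and 79 reads, in the order shown. With 9 to 14 reads in peak lactation in each of the 5 groups, counting error alone spans more than their distance from miR-214.

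Other miRNAs known from mammary stroma, epithelium, endothelium, blood and muscle were measured to show what else moved between the pooled tissues. For these lists, reads were counted in tags that begin with the first bases of the miRNA, a rule by which miR-214 had a log2 ratio of 4.996. In the stromal list 6 of 18 miRNAs were called higher and 3 lower, beside 27.5% higher and 32.2% lower among all groups. Its median log2 ratio was -0.40, against -0.24 for all groups of at least 1 RPM and -0.43 for those of at least 10 RPM. The summed RPM of the list, most of it miR-143, had a log2 ratio of 0.63. miR-143, known from smooth muscle and fibroblasts and the most abundant of the list, had 189283 RPM in peak and 331082 RPM in late, at a log2 ratio of 0.81. miR-21, often raised in fibrosis, had a log2 ratio of -0.54, and miR-10a/b, known from mesenchymal tissue, one of -1.08. miR-145 of smooth muscle, with a log2 ratio of 3.23, and miR-29b, which targets collagen mRNAs, with 4.37, were called higher and are named here after their values were seen. Beside miR-10a/b, those called lower were miR-152, with a log2 ratio of -1.42, and miR-99a/100, with -1.36.

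The epithelial list had 2 of 10 miRNAs higher and 5 lower, beside the same 27.5% and 32.2% of all groups, with a median log2 ratio of -0.96. miR-148a, the most abundant of it and common in milk, had 101338 RPM in peak and 25866 RPM in late lactation. miR-200b/c, which keeps cells epithelial, had a log2 ratio of -0.89, and miR-141/200a of the same family one of 0.62. The 2 called higher were miR-375, with a log2 ratio of 3.08, and miR-205, with 1.39, also named after their values were seen. The summed RPM of the list went from 134707 to 53028, while that of the stromal list went from 237434 to 368410. These sums are carried by miR-148a and miR-143, respectively. By number, 3 of 10 epithelial and 8 of 18 stromal miRNAs had a log2 ratio above 0.

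In the blood and immune list 5 of 9 miRNAs were called higher and 0 lower, beside 27.5% and 32.2% of all groups, with a median log2 ratio of 1.01. Of its most abundant miRNAs, miR-146a/b had a log2 ratio of -0.45, miR-451 of red cells one of 0.96 and miR-155 of activated immune cells one of -0.43. In the endothelial pair miR-126-3p, the more abundant, had a log2 ratio of -1.18 and miR-126-5p one of 1.26, so that arms of 1 hairpin also moved apart outside the cluster. Of the striated muscle list, 2 of 3 tested miRNAs were called higher and 0 lower, again beside 27.5% and 32.2% of all groups, and miR-208a had 0 reads in peak and 2 in late lactation. miR-1, counted with a relative of the same start and the most abundant of that list, had a log2 ratio of -0.79, and miR-499 and miR-133a/b had 2.48 and 2.28. The part of a shift in cell types in the ratio of miR-214 was not tested.

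**Figure D5:**
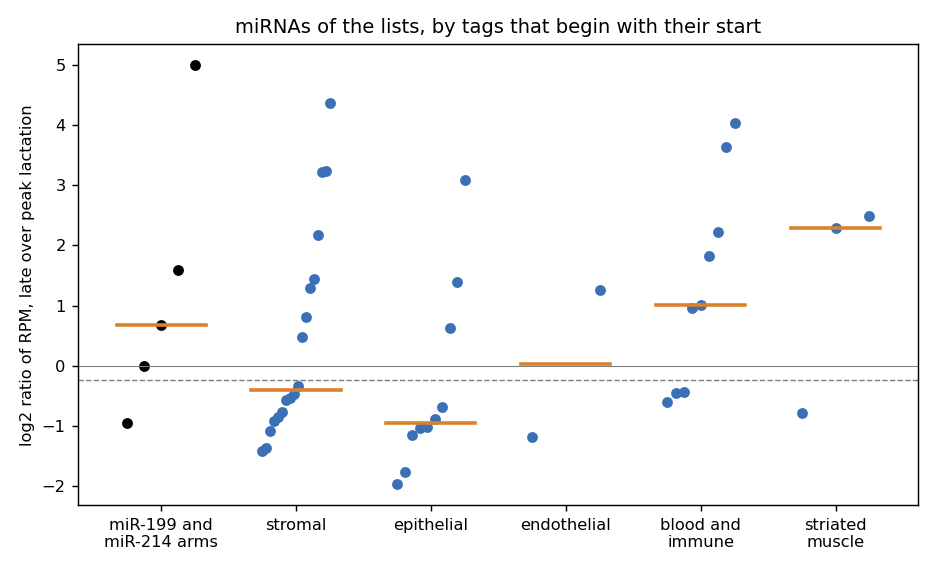
log2 ratio of RPM, late over peak lactation, of each tested miRNA by list, counted in tags that begin with its first bases; points are miRNAs, orange lines list medians and the dashed line the median of all groups (-0.24). The stromal list spreads from -1.42 to 4.37 around a median of -0.40.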

How the data were processed

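The authors deposited, for each library, whole-number read counts per distinct clean tag, after removal of adaptors, low-quality reads and reads under 18 nt, and a log of these counts of reads. Counts were scaled to RPM on clean reads. P came from the Audic-Claverie formula, as the smaller tail including the observed count. A first run used this tail, a 2-sided P was then tried, and the tail was restored as the design had it. Intervals were exact (Clopper-Pearson or Poisson, 95%). The floor of 3 reads was 0.158 and 0.406 RPM.

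No table of mature miRNAs was used here. Each miRNA was named by a short start (10 nt) written from general knowledge, chosen after tags had been looked at. A member's mature form was taken as the tag of at least 22 nt with that start whose RPM summed over both libraries was highest. The start of miR-208a was made 1 nt longer after the shorter one had led to an unrelated tag. The names rest on this and on no reference. Relatives with the same start were merged. Groups of tags sharing nt 2 to 17 of their leading tag replaced the planned background of mature miRNAs, and hairpin positions were not analysed. The leading tags, all members, the 5 nearest groups and the 3 most abundant miRNAs of each list were to be named. Members and lists were chosen with earlier results of these data known.

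Goats, days and ages come from the study's methods. Python 3.11.15, scipy 1.17.1, edgeR 4.0.16 (TMM factors), DESeq2 1.42.0 (size factors) and RNAcofold 2.7.2 were used. On simulated counts of 3415 groups, 97 of 100 raised and 88 of 100 lowered 3-fold were recovered, and 12 unchanged groups were called. With 1 library per stage the spread between libraries is unknown, so the 12 calls give no error rate for the data.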

Additional observations from a re-analysis of the deposited data

How the results depend on the processing

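No paired analysis was possible because each stage has 1 library, and no replicate could be left out. Over all alternatives run, the log2 ratio stayed between 4.58 and 5.98 for miR-214, between 1.07 and 1.68 for miR-199b-5p and between 0.02 and 0.81 for miR-199a-5p, each keeping its call. Counting the identical tag alone turned miR-199a/b-3p to a log2 ratio of 1.13, brought miR-214-5p to -1.91 and past the limits for a call on 29 and 3 reads, and turned the log2 change of the 5p over 3p odds of miR-199 to -0.62. By that rule the 5p share of miR-199 was 34.7% in peak and 25.6% in late lactation, and with the same 5′ end required it was 10.9% and 20.5%. The rule itself makes this change, since it leaves out the reads with other ends. The 5p share of miR-214 in peak lactation was 12.5% by nt 2 to 17, 12.2% by nt 2 to 14, 26.6% by nt 2 to 20 and 61.7% by the identical tag, and in late lactation 0.290% by both of the first rules. At a minimum of 10 RPM, 554 groups were called higher, and 1437 tags were called higher and 1946 lower, as fewer were tested. Without a minimum 13784 of 659118 tags were called higher. With totals that leave out the 10 most abundant tags, more tags reached 1 RPM and 14041 of 45427 were called higher. As reported, 7210 of 26175 tags were called higher. With a 2-sided P, added after the data were seen, 6938 tags were called higher and 8457 lower, 930 groups higher and 1086 lower, and each arm kept its call. A total of reads that match any mature miRNA was not run, for lack of a table of them. The fewer than 50 reads of miR-214 (last 16 nt) and miR-214-5p in peak lactation limit the precision of their ratios, and PCR copies were counted as reads.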
